A study of Mus musculus with 2 samples.

Results

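The replication-dependent histone genes were examined in nuclear RNA of bone-marrow-derived macrophages, primary cells grown from mouse bone marrow of the C57BL/6J strain. They were taken as every gene whose symbol starts with Hist1h, Hist2h, Hist3h or Hist4h, the names of the 4 clusters, which gave 70 of the 55536 genes in the tables, of which 67 are annotated as protein-coding and 3 (Hist3h2bb-ps, Hist1h2aj and Hist1h2al) as pseudogenes. By type there were 6 linker histone H1 genes, 20 H2A, 19 H2B, 12 H3 and 13 H4 genes. The cells had received 100 ng/ml Lipid A, the lipid anchor of bacterial endotoxin and a TLR4 ligand, for 12 h. They were then kept without it for 12 h and given 100 ng/ml again for 120 min. RNA of the nuclear fraction (nucleus or nucleoplasmic, depending on the label) was sequenced after removal of ribosomal RNA. The single group held 2 biological replicates under the same donor label, so their spread may be partly technical. Replicate 1 was made from 1 µg of RNA and replicate 2 from 500 ng, so input and replicate cannot be told apart. There were no untreated cells, and no effect of Lipid A was measured.

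Replication-dependent histone genes supply the core histones H2A, H2B, H3 and H4 and the linker histone H1 that package newly made DNA, and they are known for strong transcription in S phase. Their messages are the main class of animal messenger RNAs without a poly(A) tail. They end in a short stem-loop that is bound by the protein SLBP (Slbp) and cut by a machinery that contains the U7 small nuclear RNA. Libraries made from total RNA after ribosomal RNA depletion can hold such messages, which selection on poly(A) tails loses.

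The stem-loop defines how these messages end, and it was searched for after the stop codon of each gene's longest annotated transcript. The 16-letter form, with the stem GGCNCT, the loop TTTC and the stem AGNGCC, was found in 32 of the 70 genes. Searched anywhere in all their transcripts, 33 members had it. A wider form, with the stem NNNNCT, the loop TTTN and the stem AGNNNN, whose 6 letters had to be complementary to the first 6, was set after the sequences had been seen. It was found in 43. Outside the family, the 16-letter form occurred on the transcript strand in 3 of 55380 other genes (0.00542%), which were Gm20634, H2bfm and Trim17, and the wider form in 92 (0.166%). Gm20634 and Trim17 overlap members on the same strand. The distance from the stop codon to the stem-loop was 21 to 58 bases, with a median of 31. The sequences below are shown because each is a different form of the stem-loop or belongs to a gene with a high level. They are written 5′ to 3′ on the transcript strand, from the mm10 transcripts of GENCODE release M21, with the stem-loop in capitals.
Hist2h2aa2: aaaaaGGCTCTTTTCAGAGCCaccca
Hist3h2a: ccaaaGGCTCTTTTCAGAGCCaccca
Hist1h1c: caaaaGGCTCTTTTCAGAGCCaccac
Hist2h2ac: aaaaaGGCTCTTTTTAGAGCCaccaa
Hist1h4m: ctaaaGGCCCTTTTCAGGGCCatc
Hist1h4i: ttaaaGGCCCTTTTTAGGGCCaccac
Hist1h4b: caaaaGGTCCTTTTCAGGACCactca
Hist1h2bb: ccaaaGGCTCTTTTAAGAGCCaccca
The form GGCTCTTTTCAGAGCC was the commonest, in 25 of the 43 genes. All 11 H4 genes with a match had GGCCC or GGTCC at the start of the stem, where the genes of the other types had GGCTC. The annotated transcript of Hist1h4m ends 3 bases after its stem-loop. Of the 23 genes detected below, 16 had a stem-loop match. A missing match says only that these letters were not found after the stop codon of the longest annotated transcript. Pseudogenes without a coding part could not match.

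The coding parts of these genes are close copies of each other, which bears on every per-gene value. All 13 H4 genes encode the same protein, yet the median identity of their coding sequences over pairs was 93.9%. The 12 H3 genes encode 3 different proteins, the 18 H2A genes with a coding part encode 9, the 18 H2B genes 11, and the 6 H1 genes 6. The first 60 coding bases of H4 genes are shown because they show where the genes differ and where they cannot be told apart. They are 5′ to 3′, on the transcript strand, in mm10 with GENCODE M21, and capitals mark the 19 positions at which the 13 genes differ.
Hist1h4m: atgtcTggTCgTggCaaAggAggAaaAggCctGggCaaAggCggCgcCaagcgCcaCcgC
Hist1h4n: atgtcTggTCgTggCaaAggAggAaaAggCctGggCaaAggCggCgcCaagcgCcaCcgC
Hist1h4k: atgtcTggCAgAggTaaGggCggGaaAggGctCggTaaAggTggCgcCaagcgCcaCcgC
Hist1h4d: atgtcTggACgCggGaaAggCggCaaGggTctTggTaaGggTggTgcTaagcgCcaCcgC
Hist1h4b: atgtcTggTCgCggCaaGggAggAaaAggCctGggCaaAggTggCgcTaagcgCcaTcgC
Hist2h4: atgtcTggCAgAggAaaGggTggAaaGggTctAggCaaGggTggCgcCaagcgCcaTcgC
Hist1h4m, Hist1h4n and Hist1h4i had the same 60 bases. Hist1h4d and Hist2h4 differed from them and from each other at many of the marked positions, all of them without a change in the encoded protein.

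By the gene tables, the share of replication-dependent histone genes detected in these nuclei was near that of all protein-coding genes. It was highest in H4 among the types and in Hist2 among the clusters. Levels are given as TPM, the deposited share of transcripts corrected for length, and a gene counted as detected where each library had a TPM of at least 1. By this rule 23 of the 70 genes were detected, 32.9%, and they were 34.3% of the 67 protein-coding members, beside a background of 39.6% of all protein-coding genes and 18.8% of all genes. Of the rest, 39 were under TPM 1 in both libraries, with a highest single value of 0.97, and 6 of those 39 were listed at 0 in both. Another 6 reached TPM 1 in replicate 1 only and 2 in replicate 2 only. The median over the 70 genes was a TPM of 0.595 in replicate 1 and 0.41 in replicate 2, above the median of 0.18 and 0.29 over all protein-coding genes. Among detected genes the order was the other way, with a median of 3.64 and 2.95 for the members and 6.53 and 9.53 for protein-coding genes. Only Hist2h2aa2 and Hist3h2a were at TPM 10 or more in both libraries. By the same rule the second tool, the authors' second transcript tables, detected 15 of the 70. That is a lower share than its 39% of all protein-coding genes.

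**Figure D1:**
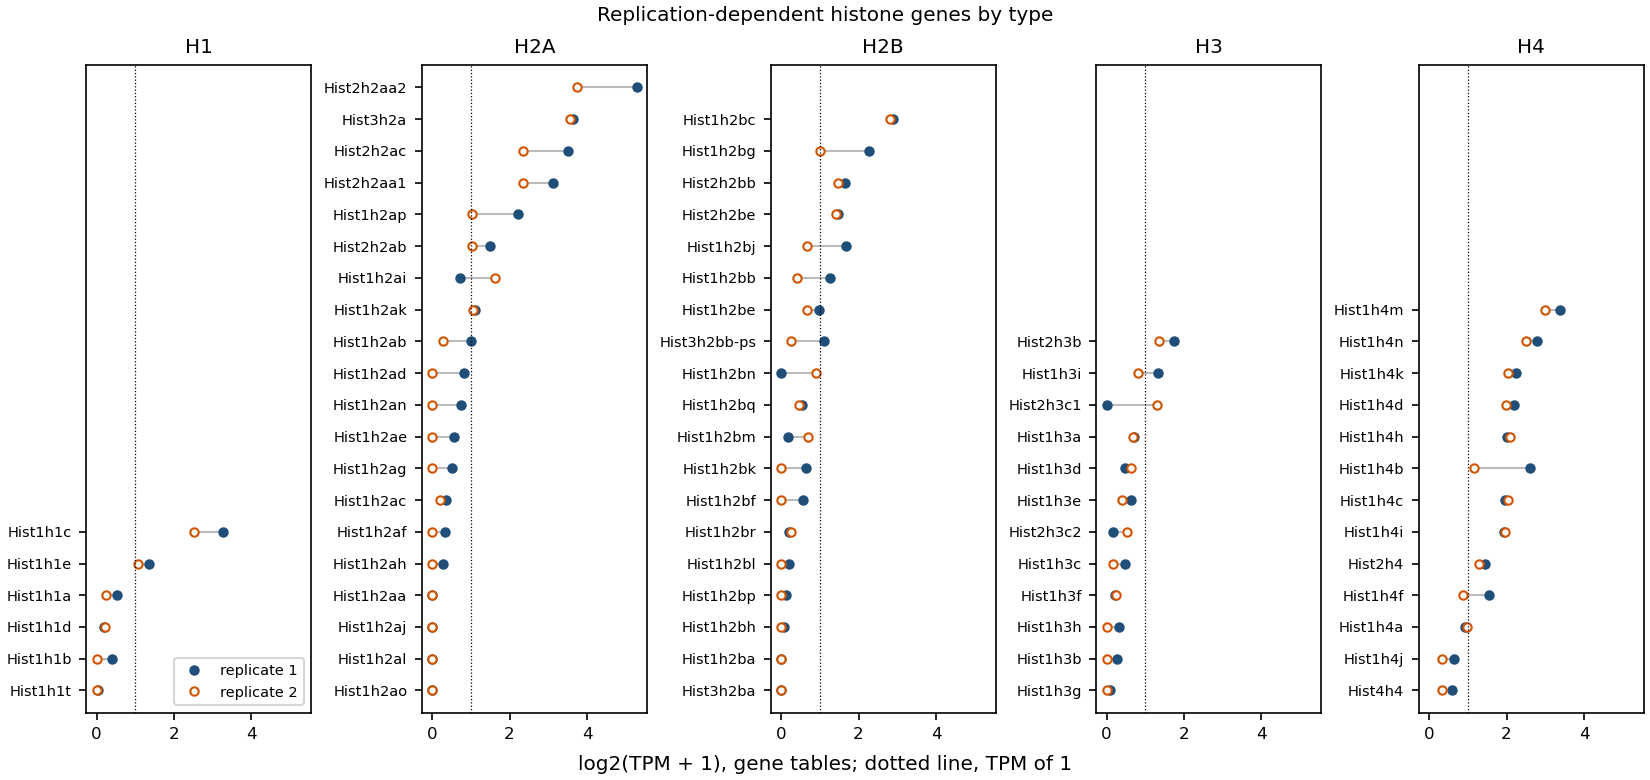
Level of each of the 70 genes as log2(TPM + 1) from the gene tables, in one panel per histone type, with replicate 1 filled and replicate 2 open, and a dotted line at a TPM of 1. In the H4 panel 9 of 13 genes lie above the line in both libraries, and in the H3 panel 1 of 12.

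H4, the histone whose genes all encode one protein, had the highest share of detected genes, 9 of 13, and a median TPM of 2.90 in replicate 1 and 2.92 in replicate 2. Hist1h4m (chr13:21811746-21812147) had a TPM of 9.38 and 7.01 in replicates 1 and 2, and its neighbour Hist1h4n (chr13:21831767-21832196) 5.91 and 4.65. These were the highest H4 genes in each library. Next came 5 genes within a narrow range. Hist1h4k was at 3.73 and 3.13, Hist1h4d at 3.57 and 2.95, and Hist1h4h at 3.01 and 3.28. Hist1h4c was at 2.90 and 3.12, and Hist1h4i at 2.84 and 2.92. The deposited credibility intervals of these 5 genes overlapped one another in each library, so no order among them can be read. Hist1h4b differed most between the libraries among the detected H4 genes, at 5.07 in replicate 1 and 1.22 in replicate 2. Hist2h4, the H4 gene of the Hist2 cluster, was at 1.70 and 1.45. The other 4 were Hist1h4f (1.93 and 0.83), Hist1h4a (0.90 and 0.97), Hist1h4j (0.57 and 0.27) and Hist4h4, the only Hist4 gene (0.52 and 0.25).

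H2A, the core histone that pairs with H2B, had the highest single genes beside many at or near 0. Hist2h2aa2 (chr3:96239749-96240276, minus strand) had a TPM of 37.9 in replicate 1 and 12.3 in replicate 2, a mean of 25.1 ± 18.1 (SD, n = 2). It was the highest member in both libraries, with a wide gap between them. Hist3h2a (chr11:58954685-58956830, plus strand) was at 11.4 and 10.9, or 11.1 ± 0.332 (SD, n = 2). Hist2h2ac was at 10.4 and 4.12, and Hist2h2aa1, a copy of Hist2h2aa2 with the same coding sequence, at 7.72 and 4.10. All 4 lie outside Hist1. Of the 15 Hist1 H2A genes, 2 were detected, Hist1h2ap at 3.64 and 1.03 and Hist1h2ak at 1.15 and 1.08. Hist2h2ab, at 1.84 and 1.05, was the other detected H2A gene. Hist1h2ai, just under the rule, was at 0.65 and 2.09. Of the 20 H2A genes, 11 were under TPM 1 in both libraries, and Hist1h2aa, Hist1h2aj, Hist1h2al and Hist1h2ao were at 0 counts in both. A count of 0 allows up to 3 counts, equal to 0.105 CPM (counts scaled to the library's total, not corrected for length) in replicate 1 and 0.177 CPM in replicate 2. This floor does not cover reads that copies share. Hist1h2ao shares 93.8% of its 31-base words with Hist1h2ap. The deposited upper bounds of TPM for these 4 genes were 0.380 to 0.852 in replicate 1 and 0.777 to 1.59 in replicate 2.

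H2B had 4 detected genes of 19. Hist1h2bc (chr13:23684199-23692908) was the highest, with a TPM of 6.44 and 6.06 in replicates 1 and 2. It differed little between the libraries. Hist1h2bg was at 3.82 and 1.00, Hist2h2bb at 2.14 and 1.76, and Hist2h2be at 1.78 and 1.67. Of the others, 12 were under TPM 1 in both libraries. Hist1h2bj (2.22 and 0.58), Hist1h2bb (1.39 and 0.34) and the pseudogene Hist3h2bb-ps (1.15 and 0.19) passed TPM 1 in replicate 1 only. Hist1h2ba and Hist3h2ba were listed at 0 in both.

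The linker histone H1 and the core histone H3 had few detected genes. Of the 6 H1 genes, Hist1h1c (chr13:23738808-23740367) was at a TPM of 8.56 in replicate 1 and 4.76 in replicate 2, and Hist1h1e (chr13:23620629-23622558) at 1.55 and 1.09. The other 4 H1 genes were at 0.44 or less in both libraries. Hist1h1c was thus the main H1 gene in each library. Of the 12 H3 genes only Hist2h3b was detected, at 2.37 and 1.55. Hist2h3b lies opposite the antisense gene Gm20628, which had more expected counts and is described with the copies below. Hist1h3i (1.52 and 0.74) and Hist1h3a (0.62 and 0.60) were among the 5 genes just under the rule, with Hist1h4a, Hist1h4f and Hist1h2ai. Hist2h3c1 was at 0 in replicate 1 and 1.45 in replicate 2, and the reads behind it are described with the copies below.

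Summed by type, H2A and H4 made up most of the family's TPM. The 70 genes together had a TPM of 160.6 in replicate 1 and 95.5 in replicate 2. H2A took 43.9% ± 7.26 of that sum and H4 29.9% ± 5.22 (SD, n = 2). H2B took 14.3% ± 0.852, H1 6.69% ± 0.275 and H3 5.19% ± 1.46. The 4 core types are used in equal numbers in a nucleosome, while their summed RNA here ran from a TPM of 6.67 for H3 to 78.8 for H2A in replicate 1 and from 5.94 to 37.1 in replicate 2. The lead of H2A came from the copies Hist2h2aa1 and Hist2h2aa2. Without that pair H4 was the largest type, with 36.6% in replicate 1 and 40.5% in replicate 2, and H2A had 28.9% and 26.1%. The second tool gave shares of 42.3% ± 6.47 for H2A, 30.0% ± 3.24 for H4, 16.3% ± 1.88 for H2B, 6.50% ± 0.692 for H1 and 4.93% ± 0.652 for H3. In expected counts, which are not corrected for length, H2A was also highest, at 2056 in replicate 1 and 610 in replicate 2. H4 had 765 and 274, H2B 801 and 273, H1 761 and 201, and H3 116 and 93.1. The second place of H4 thus holds for TPM and not clearly for counts.

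**Figure D2:**
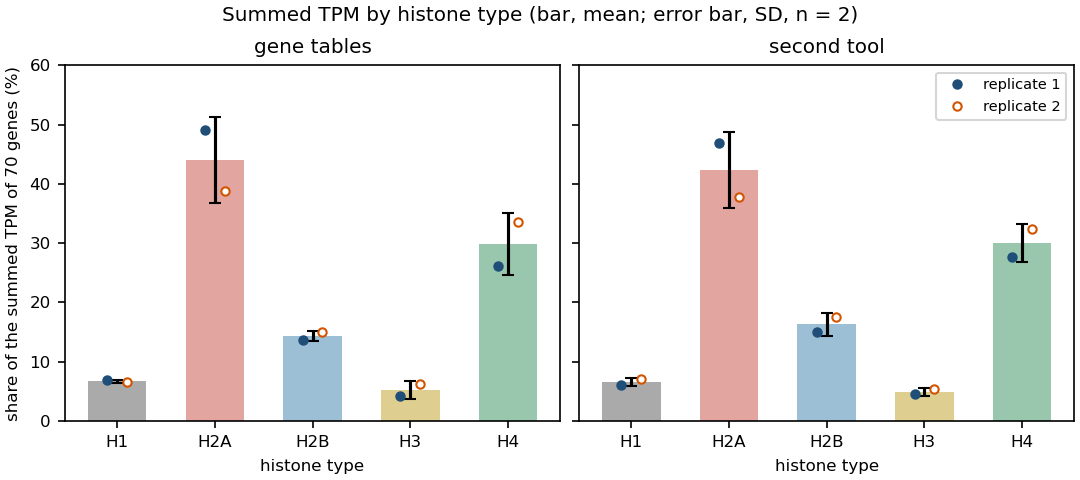
Share of the summed TPM of the 70 genes by histone type, in percent, for the gene tables (left) and the second tool (right), as bars of the mean with SD (n = 2) and points for each replicate. H2A is highest and H4 second in each library by each tool, and H3 is lowest.

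The Hist2 cluster had the largest share of detected genes. It (chr3:96219865-96270132) had 8 of 10 detected, with a median TPM of 1.99 and 1.61. Hist1, on chromosome 13, had 14 of 56 detected, with a median of 0.525 and 0.245. Hist3 (chr11:58948920-58956830) had 1 of 3, which was Hist3h2a, and Hist4 had 0 of 1. By the second tool the counts were 4 of 10 for Hist2, 10 of 56 for Hist1, 1 of 3 for Hist3 and 0 of 1 for Hist4. With more than 5 times as many genes, Hist1 summed to a TPM of 81.6 and 54.2, against 66.0 and 29.9 for Hist2. The Hist2 sum holds the pair Hist2h2aa1 and Hist2h2aa2, at 45.6 and 16.4. Within Hist1, the 24 genes at chr13:21715763-22043676 had 6 detected and a summed TPM of 35.1 and 25.6, and the 31 genes at chr13:23531050-23934851 had 8 detected and 46.5 and 28.7. The remaining one, the pseudogene Hist1h2al, lies apart and was at 0. High genes did not form one block. Hist1h4i stood between Hist1h2bk and Hist1h2ag, and Hist1h4d between Hist1h3d and Hist1h2be, all 4 neighbours under a TPM of 1 in both libraries.

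**Figure D3:**
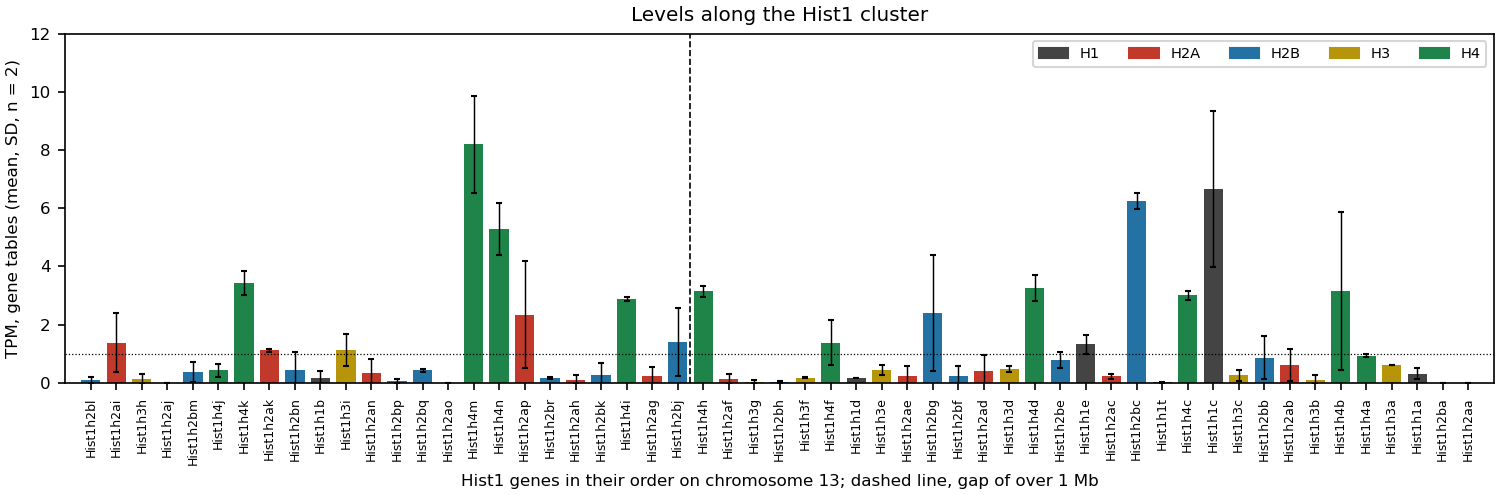
Mean TPM with SD (n = 2) of 55 Hist1 genes in their order on chromosome 13, coloured by histone type, with a dashed line at the gap of over 1 Mb and a dotted line at a TPM of 1. Bars above the dotted line are spread over both regions, with genes under it between them.

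Some histone genes share a start region with a neighbour, most often an H2A with an H2B gene. In 15 pairs the genes started within 1000 bases of each other on opposite strands, 14 of them an H2A with an H2B gene. In 1 pair both genes were detected, Hist2h2ac and Hist2h2be, in 5 pairs 1 gene was, and in 9 pairs neither. Since 7 of the genes in these pairs were detected in all, nothing about joint detection is read from this count. Hist1h2bc had a TPM of 6.44 and 6.06 while Hist1h2ac, whose start lies 251 bases away, had 0.28 and 0.15. Hist3h2a had 11.4 and 10.9 while Hist3h2bb-ps, 173 bases away, had 1.15 and 0.19.

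The promoters of 62 members were in the RefSeq table (250 bases before to 50 bases after the start, GRCm38.p6, the assembly of mm10). The letters CCAAT, searched on both strands, were in 85.5% of them, against 37.9% of 27025 promoters of all genes, and TATAAA in 56.5% against 14.2%. Among the members, CCAAT was in 70% of the 20 detected ones and 92.9% of the 42 others, and TATAAA in 55% and 57.1%. A match to such short letters is a description of the window and not a binding site.

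How far an annotated transcript runs past the stem-loop differed widely, and it sets how counts become TPM. In 20 genes the transcript ends within 60 bases after the stem-loop, and 8 of these were detected. In 23 it runs on for longer, and 8 were detected. A further 9 are longer but without a match (3 detected), 15 stop at most 2 bases after the stop codon (4 detected), and 3 are pseudogenes without a coding part. The long models held 57.9% of the family's expected counts in replicate 1 and 65.3% in replicate 2, but 25.5% and 34.2% of its TPM. The short ones held 26.6% and 15.9% of the counts and 57.8% and 42.9% of the TPM. Hist3h2a, annotated at 2146 bases, had the most counts, 1071 and 441, against 546 and 80.3 for Hist2h2aa2, annotated at 528 bases, which had the higher TPM. Where reads fell within a transcript was not examined, since the tables hold no positions. The letters AATAAA, a poly(A) signal, were in the last 50 bases of 12 genes, of which 4 were detected, beside 23 of all 70. The 4 were Hist3h2a, Hist1h1c, Hist2h2be and Hist2h4. Hist3h2a and Hist1h1c, the latter at 559 and 134, had the most expected counts of the family in each library. Genes outside the family were not searched for these letters.

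Several members share most of their letters with another gene, so their single values are uncertain. Of each gene's 31-base words, a median of 41.3% occurred in no other gene, and 42 of the 70 genes, 12 of the 23 detected ones among them, had under 50% such words. Hist2h2aa2 and Hist2h3c1 had none. All words of Hist2h2aa2 are in Hist2h2aa1. All of them, and 89.7% of the words of Hist2h2aa1, also occur outside the family. The pair together had a TPM of 45.6 in replicate 1 and 16.4 in replicate 2, so replicate 1 was higher also without the split between them. Summed over the pair, Hist2h3c1, Hist2h3c2, Gm20632, Gm20633 and Gm20634, the TPM was 52.5 and 23.5. Hist2h2aa2 lies opposite Gm20632, which had 271 and 104 expected counts. Hist2h2aa1 lies opposite Gm20633, with 194 and 68.3, and overlaps Gm20634 on its own strand. Hist2h3b (29.5 and 8.83 expected counts) and Hist2h2bb (15.65 and 6.07) lie wholly opposite Gm20628, which had 94.1 and 23.7. Whether counting used strand is not given in the sources used here, so the reads of these members cannot be told apart from antisense RNA. Hist1h4m and Hist1h4n share 91.7% and 85.3% of their words and together had 15.3 and 11.7. Hist3h2a lies within Trim17 on the same strand, and 67.9% of its words were in no other gene. Trim17 had 92.4 and 113 expected counts, which is fewer than Hist3h2a in each library. Hist1h1e overlaps Hist1h2be on the same strand over 496 bases.

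Hist2h3c1, an H3 gene, was the only member called higher in replicate 2. All of its words are in Gm20634, which covers it on the same strand. It had 0 expected counts in replicate 1 and 48.8 in replicate 2, while Gm20634 had 376 and 97.9. Together they had 376 and 147. In TPM the sum was 2.80 and 3.15, so its direction depends on the scale. The second tool also gave it 0 counts in replicate 1, and 48.2 in replicate 2. By these words no read could be given to Hist2h3c1 alone.

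The family was lower in replicate 2 than in replicate 1, relative to library size. Its expected counts came to 158.1 CPM in replicate 1 and 85.7 CPM in replicate 2, with 95% Wilson intervals of 153.5 to 162.8 and of 81.4 to 90.2, from 28450309 and 16940220 counts on genes. In an exact two-sided binomial test on counts, given library sizes scaled by TMM (a scaling on the bulk of genes), 33 members had enough counts to be tested. Of these, 20 were lower in replicate 2, 60.6%, where 30.2% of all tested genes were lower. Only Hist2h3c1 was higher, 3.03%, where 29.7% of all tested genes were. The other 12 did not pass an adjusted p of 0.05. The median log2 difference of the 33, replicate 2 minus replicate 1, was −0.91, with a middle range from −1.47 to −0.63, and 0.01 over all tested genes. The difference was negative in 32 of the 33 members and in 49.4% of all tested genes. It exceeded 2-fold downwards in 16 members and in 6.84% of all tested genes. The test sets 1 library against the other, with no error beyond that of counting, and the common biological coefficient of variation over all tested genes was 0.335.

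By type, the calls came mainly from H2A, H2B and H4. Of the tested genes, 2 of 3 H1, 6 of 7 H2A, 6 of 8 H2B, 0 of 4 H3 and 6 of 11 H4 genes were lower in replicate 2. Hist2h2aa2 had a log2 difference of −2.17 (Benjamini-Hochberg adjusted p of the exact binomial test 1.24e-49), Hist1h1c −1.47 (2.99e-30) and Hist3h2a −0.70 (1.15e-17). Hist1h2bg, at −2.44, and Hist1h4b, at −2.43, had the most negative values, followed by Hist1h2bb at −2.32, Hist1h2bj at −2.28 and Hist1h2ap at −2.26. These 5 rest on few counts, 2.07 to 8.42 in replicate 2. Hist2h2ac was at −1.88, Hist4h4 at −1.63, Hist2h2aa1 at −1.47, Hist1h2ac at −1.44, Hist1h2be at −1.37 and Hist1h1e at −1.14. Hist1h4m (−0.91), Hist1h4d (−0.89), Hist1h4n (−0.85), Hist2h4 (−0.85), Hist2h2be (−0.73) and Hist1h2bc (−0.70) were lower by less than 2-fold. Of the detected genes, Hist1h4k, Hist1h4h, Hist1h4c, Hist1h4i, Hist2h3b, Hist2h2bb and Hist2h2ab did not pass, at log2 differences of −0.40 to −1.24, and Hist1h2ak had too few counts to be tested.

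**Figure D4:**
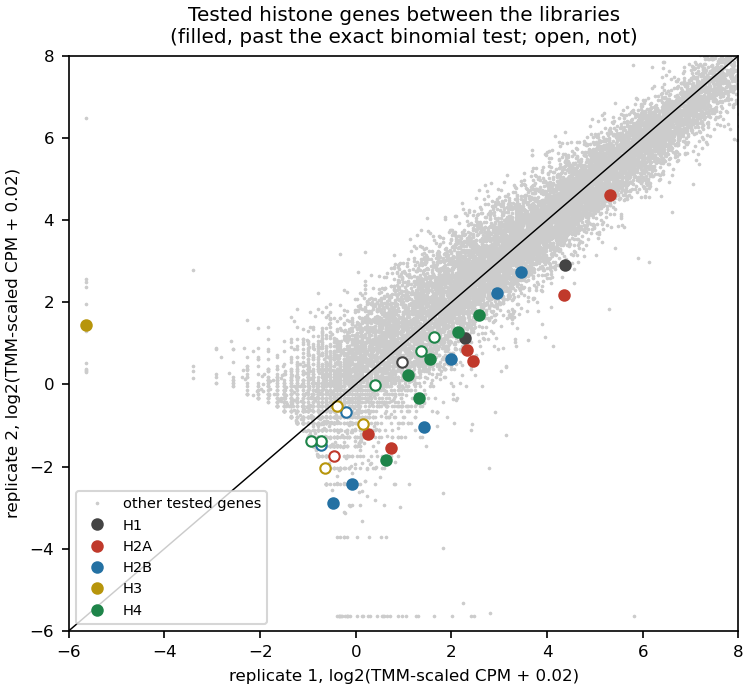
TMM-scaled CPM, as log2(CPM + 0.02), in replicate 1 (x axis) and replicate 2 (y axis) for all tested genes in grey and the 33 tested histone genes coloured by type, filled where the exact binomial test passed. Of the 33, 32 lie below the line of equal values, and Hist2h3c1 lies alone at the left edge with 0 counts in replicate 1.

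Base composition and length are set beside that difference. Depth and input also differed between the 2 libraries and cannot be told apart from replicate. The tested members had a median GC content of 53.7%, against 48.4% for all tested genes, and 12 of 33 were in the top GC decile of genes. That decile had a median log2 difference of −0.49, with 56.8% of its genes lower in replicate 2. Members with GC at or above the median of tested genes had a median of −1.12 (24 genes, 14 lower), where such protein-coding genes had −0.29 and 47.4% lower. Members with less GC had −0.70 (9 genes, 6 lower), where such protein-coding genes had 0.14 and 21.5% lower. Members shorter than 800 bases had a median of −1.24 (17 genes, 10 lower), and protein-coding genes of that length −0.49 with 48.0% lower. Longer members had −0.79 (16 genes, 10 lower), against −0.07 and 35.3%. The part of GC, length and input in the members' difference was not tested. On TMM-scaled counts all 8 macrophage markers were also called lower in replicate 2, where 30.2% of all tested genes were, with a median of −0.76. Their summed TPM was nearly equal, 3325 and 3302, with Adgre1 and Csf1r higher in replicate 2. By the second tool's TPM all of them but Fcgr1 were higher in replicate 2.

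The members' median difference was smaller as log2(TPM + 1) than on TMM-scaled counts. The TPM of the median gene was higher in replicate 2. Short structural and mitochondrial RNAs held 76.1% of all TPM in replicate 1 and 67.8% in replicate 2. As log2(TPM + 1), replicate 2 minus replicate 1 had a median of −0.23 over the 70 members and 0.43 over all tested genes. Over the 33 tested members it was −0.25. With a pseudocount of 0.1 the medians were −0.63 over the 70 members and 0.61 over all tested genes, so the size depended on the pseudocount. Of the 23 detected members, 20 had the higher TPM in replicate 1, and Hist1h4h, Hist1h4c and Hist1h4i in replicate 2. By the second tool the split of the same 23 was 13 and 10. The deposited credibility intervals of TPM did not overlap between the libraries for 8 members. For Hist2h2aa2 they were 32.5 to 41.6 and 5.24 to 16.5. The other 7 were Hist2h2ac, Hist1h1c, Hist1h4b, Hist1h2bg, Hist1h2ap and Hist4h4, all higher in replicate 1, and Hist2h3c1, higher in replicate 2. The share of all genes with such intervals was not counted, so nothing about the family is read from these 8.

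Both tools ranked the members alike, and the second gave lower values. Both started from the same reads, so this is agreement of estimates. Over the 70 members, Pearson's r of log2(TPM + 1) between the tools was 0.98 in replicate 1 and 0.96 in replicate 2 (Spearman's rho 0.98 and 0.94). Between the libraries, Pearson's r was 0.90 by each tool. The tools made the same detection call for 62 of 70 members, where they did so for 94.6% of protein-coding genes. By both, 15 members were detected, by the gene tables alone 8, by the second tool alone 0, and by neither 47. With the TPM of both tools rescaled without short structural and mitochondrial RNAs, these counts were 29, 4, 2 and 35. For all protein-coding genes the second tool detected 39%. The 8 were Hist1h2bg, Hist1h2ap, Hist2h3b, Hist2h2bb, Hist2h4, Hist2h2ab, Hist1h1e and Hist1h2ak, with mean TPM of 1.11 to 2.41 in the gene tables. All 8 were thus close to the rule. The second tool's TPM was a median of 0.489 times that of the gene tables in replicate 1 and 0.618 times in replicate 2 over the detected members, where detected protein-coding genes had 0.612 and 0.819. For Hist2h2aa2 the second tool gave 14.3 and 7.43, for Hist3h2a 4.95 and 6.98, and for Hist1h1c 3.60 and 2.94. It put Hist3h2a higher in replicate 2, where the gene tables had it nearly equal. Of the 23 detected members, 16 had their higher TPM in the same library by both tools.

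**Figure D5:**
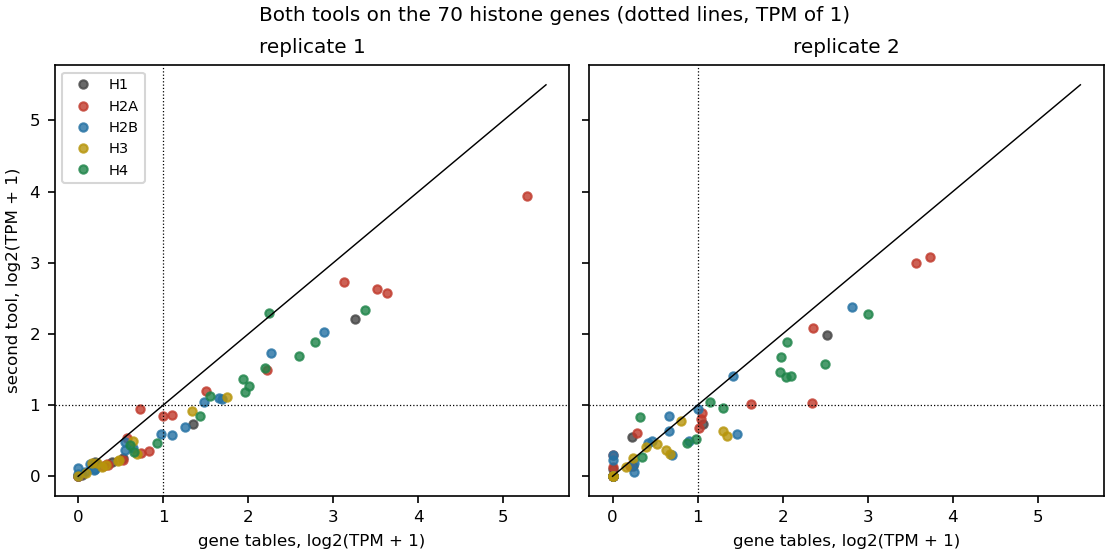
Second tool against gene tables, as log2(TPM + 1), for the 70 genes coloured by type, in replicate 1 (left) and replicate 2 (right), with the line of equal values and dotted lines at a TPM of 1. Nearly all genes with a TPM above 1 lie below the line of equal values, and 8 genes pass TPM 1 in both libraries by the gene tables only.

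Replication-independent histone variants, which are mostly polyadenylated and made outside S phase too, had a higher summed and median TPM than the family. Of 11 variant genes found, 8 were detected, and their summed TPM was 236.4 in replicate 1 and 270.0 in replicate 2, which is 1.47 and 2.83 times that of the 70 members. Their median TPM was 7.70 and 5.21, beside 0.595 and 0.41 over the 70 members. The largest part of the variants' sum was H3f3b, which encodes the variant H3.3, with a TPM of 128.1 and 149.3. H3f3a, which encodes the same protein, was at 37.9 and 40.5. H2afy, which encodes macroH2A, was at 26.4 and 37.9. H3f3b alone exceeded the 12 replication-dependent H3 genes together, at 6.67 and 5.94. The lowest variant was H1fx, at 0.06 and 0. Of 10 variants tested, 1 was higher and 6 were lower in replicate 2, beside 29.7% and 30.2% of all tested genes.

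Genes that process and degrade histone messages were mostly detected. Of 16 genes of histone mRNA 3′ end processing, 12 were detected, beside 39.6% of all protein-coding genes. Srrt, a partner of the cap-binding complex, was at a TPM of 21.9 and 38.1, the splicing factor Prpf8 at 16.7 and 16.2, and Sympk, the scaffold of the cleavage complex, at 13.7 and 18.1. Slbp was at 7.51 and 12.2. Rnu7, the U7 RNA, was listed at 0 in both libraries, but its length of 62 bases left an effective length of 0, so no level could be read. Of 14 tested genes of this list, 1 was higher and 5 were lower in replicate 2. Over all tested genes 29.7% were higher and 30.2% lower. Of 6 genes of histone mRNA decay found, all 6 were detected. The exonuclease Xrn1 was at 15.1 and 30.7, the decapping enzyme Dcp2 at 17.5 and 20.7, the helicase Upf1 at 9.59 and 8.66, and Lsm1, the lowest, at 1.29 and 2.09. In the test 1 was higher and 3 were lower.

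Most histone chaperones and S phase genes were detected too. Of 12 chaperone genes 10 were detected. Daxx, a chaperone of H3.3, was at a TPM of 105.5 and 86.1, Npm1 at 19.0 and 44.0, and Nap1l1 at 10.2 and 17.3. The lowest by mean TPM was Chaf1a, a subunit of the replication-coupled chaperone CAF-1, at 0.46 and 0.72. Of the 12 tested, 3 were higher and 2 were lower in replicate 2. Of 15 S phase and proliferation genes, 11 were detected, among them Pcna, the sliding clamp of DNA polymerase, at 17.4 and 34.4. The proliferation marker Mki67 was at 18.5 and 19.0 and the cyclin-dependent kinase Cdk2 at 5.53 and 7.26. The lowest by mean TPM was Cdc6, a replication licensing factor, at 0.18 and 0.14. Of the 15 tested, 4 were higher and 4 were lower. Beside both lists stand 39.6% of all protein-coding genes detected, and 29.7% higher and 30.2% lower over all tested genes. The cell cycle of these cells was not measured, and the number of cells in S phase cannot be told apart from RNA per cell.

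The cell type label was checked against marker genes. By the gene tables all 8 macrophage markers were detected, with a summed TPM of 3325 and 3302. None of the 8 bone marrow progenitor, 4 T cell, 4 B cell, 5 neutrophil, 4 erythroid or 4 fibroblast markers was, with summed TPM of at most 1.77 in any list and library. Of 3 endothelial markers the gene tables detected Kdr, at a TPM of 12.0 and 8.30. By the second tool 3 further markers passed the rule, the T cell gene Cd3d (1.00 and 5.57), the erythroid gene Alas2 (1.45 and 3.41) and the endothelial gene Pecam1 (1.45 and 14.4). The gene tables had these at 0.03 and 0, at 0.84 and 1.77, and at 0.54 and 0.55.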

How the data were processed

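Total RNA depleted of ribosomal RNA had been sequenced from the nuclear fraction of 2 macrophage samples of 1 group. The tables deposited for genes and for transcripts held, per the file headers, expected counts and TPM, with posterior mean TPM, bounds of a credibility interval of TPM (a signal value whose level is not stated) and, for transcripts, the percent of a gene's TPM. The authors' second transcript tables, called the second tool, held estimated counts and TPM, which were summed per gene. Not given in the sources used here were tools, versions and strand. Reads had been assigned to GENCODE release M21 on mm10, per the file headers.

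The depth on genes was 28450309 expected counts for replicate 1 and 16940220 for replicate 2, without rows for other sequences (1.79% and 0.318% of counts). Intervals and floors (3 counts) cover counting error only, since PCR copies were not marked. Levels are TPM, mean ± SD (n = 2). Expected counts were rounded. Replicate 2 was set against replicate 1, for each gene averaging at least 10 counts, by an exact two-sided binomial test given library sizes scaled by TMM in edgeR 4.0.16 (R 4.3.3), with Benjamini-Hochberg adjustment over 14691 genes and a threshold of 0.05. By this test 59.9% of genes differed, so the replicates are separate libraries. The biological coefficient of variation came from an intercept-only edgeR model. GC content was that of a gene's longest annotated transcript. Alternatives were other TPM thresholds, posterior mean TPM, the second tool, TPM rescaled without short structural and mitochondrial RNAs, a count threshold, unscaled sizes, DESeq2 1.42.0 size factors, no filter, other pseudocounts and leaving out each replicate.

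The members and lists were chosen with earlier results of these data known. Named are all detected members, those passing the binomial test, those detected by 1 tool only, the 5 just under the rule and, of each related list, the 3 highest genes and the lowest. Slbp and other members named for their sequence, their copies or a count of 0 were added after values were seen. The listed symbols Zcchc6, Zcchc11 and H3f5 were not matched. Scripts ran under Python 3.11.15 with scipy 1.17.1 and pandas 2.3.3.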

Additional observations from a re-analysis of the deposited data

How the results depend on the processing

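The count of 23 detected members fell to 13 at a TPM threshold of 2 and to 15 by the second tool. It was 25 without replicate 1 and 29 without replicate 2, 20 by counts and 33 by TPM rescaled without short structural and mitochondrial RNAs. The median TPM of the members, 0.503, was 0.638 as posterior mean and 1.88 after that rescaling, and 0.41 to 0.595 when either replicate was left out. The rescaling multiplies every TPM by 4.18 in replicate 1 and 3.11 in replicate 2. Of 33 tested members, 20 were lower in replicate 2, beside 30.2% of all tested genes. By the second tool 32 of 43 were, beside 30.9%. Without the filter on low counts 22 of 64 were, a smaller share of members, beside 19.8%. With unscaled library sizes 19 of 33 were, beside 22.1%, and with DESeq2 size factors 20 of 33, beside 30.6%. The count of members higher in replicate 2 was 1 in every setting. Unscaled library sizes moved the share of all tested genes that were higher from 29.7% to 39.2%, and of those lower from 30.2% to 22.1%. The median log2 ratio of −0.23 was −0.63 with a pseudocount of 0.1 and −1.13 on TMM-scaled counts with a prior count of 0.5, negative in each. The tools agreed on 62 members, and on 64 or 65 in the other settings. The cause of these shifts was not tested. Rescaling the second tool was added after seeing the data. No paired analysis was possible because there was only 1 group. With 2 libraries, a difference between them has no replicate check, and genes with under 10 mean counts, 37 of the 70, were too shallow to compare.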
